A study of Mus musculus with 4 samples.

Results

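The mRNAs described here are those of the mouse ubiquitin-conjugating enzymes, whose gene symbols start with Ube2, and of the ubiquitin-specific proteases, whose symbols are Usp followed by a digit. All protein-coding genes of the deposited count table whose symbol met this rule in the mouse annotation GENCODE vM21 were taken, without regard to their values. There were 93 such genes among the 21936 genes of the table, 37 of them Ube2 and 56 Usp, and no annotated gene that met the rule lacked a row. A pair of them met the rule by name only. Ube2cbp encodes a protein that binds ubiquitin-conjugating enzymes, and Usp6nl encodes a Rab GTPase-activating protein. The rule also took in 4 Ube2 genes that are grouped here as conjugating enzymes of ubiquitin-like proteins.

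The study asked which RNAs are found with TSSK2, a testis-specific serine kinase of the late chromatoid body in elongating spermatids. Germ cells from testes of adult C57BL/6 mice, for which the sources name no genetic change or drug, were cross-linked with paraformaldehyde, and the pellet fraction of the sonicated lysate was immunoprecipitated with an anti-TSSK2 antibody (TSSK2-IP) or, as negative control, with mouse IgG (control IgG-IP). There were 2 libraries in each group, numbered as replicates 1 and 2. The control libraries are called IgG 1 and IgG 2 after their replicate numbers. Nothing in the labels says whether the replicates came from separate animals, so p-values measure only the spread between these samples. An immunoprecipitate of whole germ cells is a bulk sample, and fewer cells of a type and less RNA per cell cannot be told apart in it.

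Ubiquitin is passed from an activating enzyme (E1) to a conjugating enzyme (E2), which carries it on a cysteine and, together with a ligase (E3), attaches it to a substrate. The choice of E2 can set the kind of chain that is built. Ubiquitin-specific proteases, the largest class of deubiquitinases, use a catalytic cysteine of their own to cut ubiquitin off again. In the testis this system serves the exchange of histones for protamines, the removal of organelles and the shedding of cytoplasm as spermatids elongate.

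The coding stretch around the catalytic cysteine is shown for the members on which the comparison turned and for some of their relatives. It shows how far related members, counted as separate genes, differ in sequence there. Segments were read 5′ to 3′ from the GENCODE vM21 transcript with the longest coding sequence (GRCm38), with the cysteine codon in capitals. Ube2e2 was the tested E2 mRNA with the largest log2 fold change, and its segment lies at chr14:18586930-18586974 on the minus strand, in exon 5. Those of its relatives Ube2e1 and Ube2e3 lie at chr14:18284353-18284397 on the minus strand and chr2:78918711-78918755 on the plus strand, each also in exon 5, and that of Ube2w at chr1:16585357-16585401 on the minus strand, in exon 4.
Ube2e2: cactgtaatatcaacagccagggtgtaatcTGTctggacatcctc
Ube2e1: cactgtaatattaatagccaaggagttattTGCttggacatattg
Ube2e3: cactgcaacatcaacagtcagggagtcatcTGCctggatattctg
Ube2w: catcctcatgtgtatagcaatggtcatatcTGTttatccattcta

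Among the Usp genes, the segment of Usp31 lies at chr7:121706846-121706875 on the minus strand in exon 1, and that of its relative Usp43 at chr11:67921707-67921736 on the minus strand in exon 1. The segment of Usp4 lies at chr9:108366840-108366869 on the plus strand in exon 8, and that of its relative Usp11 at chrX:20713358-20713387 on the plus strand in exon 7. Usp8 and Usp50 lie on opposite strands of chromosome 2, and their gene spans overlap. Their segments are at chr2:126751086-126751115 on the plus strand in exon 14 and chr2:126780465-126780494 on the minus strand in exon 2.
Usp31: aaccacggcaacacgTGCttcatgaacgcc
Usp43: aaccatggcaacaccTGTttcatgaacgcg
Usp4: aacctggggaacactTGCttcatgaactct
Usp11: aatctgggcaacacaTGCttcatgaactcg
Usp8: aatttgggaaatactTGTtacatgaactca
Usp50: aacctgggcaacaccTGCtacatgaacgcc

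In this stretch the relatives could be told apart. Ube2e2 matched Ube2e1 at 34 of the 45 bases shown and Ube2e3 at 36, and 72.4% and 74.8% of the aligned coding positions were identical. Usp31 matched Usp43 at 26 of 30 bases, with 51.8% identity over the coding sequences. Usp4 also matched Usp11 at 26 of 30 bases, with 57.2% identity over the coding sequences. Usp15, whose segment is not shown, was closer to Usp4 over the coding sequences (61.9%) and matched it at 24 of 30 bases. Genes with overlapping spans, such as Usp8 and Usp50, were not compared. No stretch of at least 150 bases with at least 97% identity to any other gene was found for Ube2e2, Ube2w, Usp31, Usp4 or Usp8. Such a stretch was found for 12 Ube2 and 7 Usp genes, and their counts are uncertain for that reason. Ube2v2, for example, has a pair of processed pseudogene copies with 100% identity over 438 and 435 bases.

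Of the 93 genes, 81 passed edgeR's filter on low counts, 32 Ube2 and 49 Usp. The 12 others were Ube2cbp, Ube2d1, Ube2l6, Ube2ql1, Ube2v1, Usp13, Usp18 and the 5 Usp17l genes, none of which reached more than 26 counts in a library. The total count was 4158034 and 4491749 in TSSK2-IP and 9858941 and 3938922 in the controls. Levels are given as normalized CPM, library counts scaled by edgeR's TMM method to the usual CPM unit, where 1 count corresponded to between 0.156 and 0.230 normalized CPM. IgG 1 stood apart. Its TMM factor was 0.652, against 1.12 to 1.18 in the other libraries. It lay at least 2-fold above IgG 2 for 14 of the tested Usp mRNAs and at least 2-fold below it for 8. For the tested Ube2 mRNAs these counts were 7 and 5. Over all 14722 genes tested they were 2477 above and 3940 below, so the balance was the other way. For the tested members the replicates differed by a median of 0.16 on the log2 scale in TSSK2-IP and of 0.82 in the controls. Values without IgG 1 or IgG 2 are therefore also given where leaving one out moved a result by much. Elongating spermatid markers summed to 5393 and 4863 normalized CPM in TSSK2-IP and 12542 and 6257 in the controls. Of these 10 markers 7 had a negative log2 fold change, and their median was only -0.084. For round spermatids 6 of 9 markers were negative (median -0.65, and -0.073 without IgG 1). For spermatocytes 4 of 9 were negative, with a median of 0.0035. The sums for Sertoli cells were between 42.6 and 59.5 in TSSK2-IP and between 22.5 and 47.3 in the controls. For Leydig cells they were between 42.8 and 46.9 and between 19.97 and 42.3, and all 7 tested Leydig markers had a positive log2 fold change, none with an unadjusted p under 0.05. No marker of these lists was at 0 in every library, and the part of other cells in the results below was not tested.

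No Ube2 or Usp mRNA passed both thresholds, an absolute log2 fold change of 1 or more and an adjusted p of at most 0.05 in edgeR's quasi-likelihood test, the adjustment being that of Benjamini and Hochberg over all genes (0 of 81 members). Among all 14722 genes tested, 0.693% were higher in TSSK2-IP and 0% lower by these thresholds. DESeq2 also called 0 members, beside 0.197% of all genes higher and 0.0611% lower. It gave no adjusted p for Ube2e2, Ube2w and Usp31, however, so it could not have called these members. At an unadjusted p under 0.05, 8 members were higher in TSSK2-IP, 5 Ube2 and 3 Usp, beside 8.34% of all genes tested. A further 2, both Usp, were lower, beside 4.89% of all genes. For 24 members both TSSK2-IP values exceeded both control values (29.6% of those tested, against 27.3% of all genes), and for 21 both fell short of them (25.9%, against 21.6%). Among the tested members, only for Ube2e2, Ube2w and Usp31 did every pairing of a TSSK2-IP with a control library give at least a 2-fold higher value, 3.70% of the 81 against 4.01% of all genes. The opposite order by 2-fold was seen for 0 members and 0.312% of all genes. For the members together these shares are near those of all genes. By family, both TSSK2-IP values exceeded both control values for 13 of 32 Ube2 (40.6%) and 11 of 49 Usp mRNAs (22.4%), and both fell short for 4 Ube2 (12.5%) and 17 Usp mRNAs (34.7%). For any single value of 2 against 2 libraries the smallest two-sided p of an exact permutation test is 0.333.

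The E2 mRNAs and the Usp mRNAs leaned in different directions, each by little. The median log2 fold change was 0.30 for the 32 Ube2 mRNAs, 19 positive and 13 negative, and -0.18 for the 49 Usp mRNAs, 18 positive and 31 negative. Of all genes tested 49.2% were positive and 50.8% negative, with a median of -0.019. With offsets for exonic length and GC content the Ube2 median was -0.0022 and the Usp median -0.29. Without IgG 1 the medians were 0.43 and 0.019, and without IgG 2 they were 0.11 and -0.35. The Ube2 median was 0.048 without TSSK2-IP replicate 2 and 0.16 with DESeq2. The difference between the families was not tested. As a share of all counts, Ube2 mRNAs took 0.280% and 0.267% of the TSSK2-IP libraries and 0.214% and 0.198% of the control libraries, so both TSSK2-IP libraries were above both controls (difference 0.0678 percentage points, two-sided exact permutation p = 0.333). On the TMM-scaled library sizes the difference was -0.0192 percentage points, so the direction of this share depends on the scaling. Usp mRNAs took 0.730% and 0.726% in TSSK2-IP and 0.956% and 0.755% in the controls, lower in both TSSK2-IP libraries (difference -0.127 percentage points, two-sided exact permutation p = 0.333). It was -0.452 percentage points on the TMM-scaled library sizes, and -0.0267 percentage points of the total count without IgG 1.

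**Figure D1:**
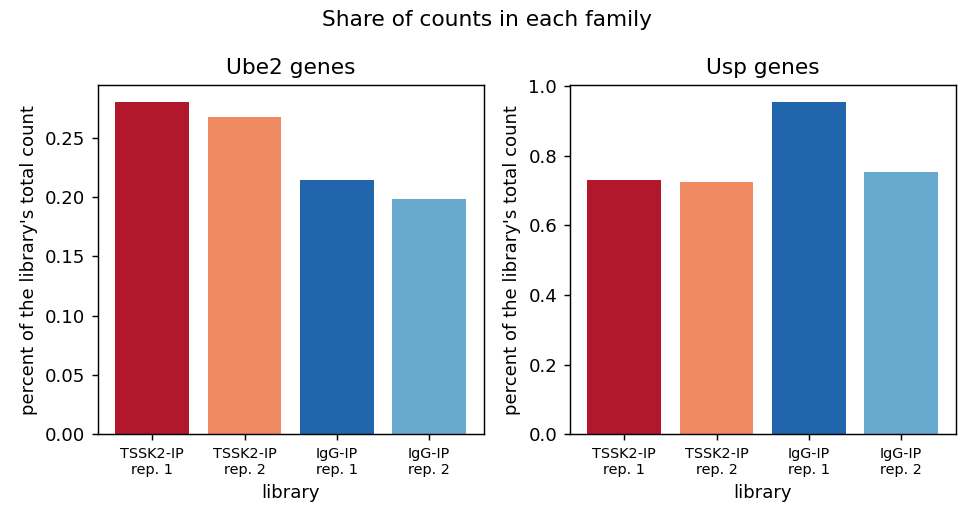
Percent of each library's total count (vertical axes, from 0) that fell on Ube2 genes (left) and Usp genes (right), 1 bar for each library. The Ube2 share is 0.280% and 0.267% in TSSK2-IP against 0.214% and 0.198% in control IgG-IP, and IgG 1 holds the highest Usp share, 0.956%.

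Ube2e2 encodes a member of the UBE2E group of E2s. Its mRNA (ENSMUSG00000058317, chromosome 14 from 18573575 to 18894267, minus strand) had 41.9 and 32.2 normalized CPM in TSSK2-IP, from 202 and 169 counts, and 4.99 and 12.9 in the controls, from 32 and 56 counts. Both TSSK2-IP libraries were above both controls, and the controls themselves differed more than 2-fold. The log2 fold change, given with its standard error (SE), was 2.07 (SE 0.49, adjusted p = 0.0804, edgeR's quasi-likelihood test), the largest among the tested members. It was 1.52 without IgG 1 and 2.83 without IgG 2. Ube2e2 passed both thresholds without a filter on low counts (adjusted p = 0.0029, edgeR) and with the replicate number as a block (adjusted p = 0.00593, edgeR), within a range over its alternatives from 3.28e-18 to 1.00. Its relatives had closer values. Ube2e1 had 13.9 and 8.56 normalized CPM in TSSK2-IP and 9.67 and 7.58 in the controls, and Ube2e3 had 13.5 and 8.75 in TSSK2-IP and 12.2 and 8.50 in the controls. For both of them the groups overlapped, with log2 fold changes of 0.37 and 0.096.

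Ube2w is an E2 known for placing ubiquitin on the N-terminus of its substrates. Its mRNA (ENSMUSG00000025939, chromosome 1 from 16540790 to 16619489, minus strand) had 86.2 and 88.3 normalized CPM in TSSK2-IP and 31.5 and 34.7 in the controls. The replicates lay close together in both groups and the groups were well apart. The log2 fold change was 1.40 (SE 0.41, adjusted p = 0.177, edgeR's quasi-likelihood test). It stayed between 1.07 and 1.45 over all alternatives, and was 1.33 and 1.42 without IgG 1 and IgG 2. An unclassified gene on the opposite strand covers 5.13% of its exonic bases.

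The UBE2D group works with many ligases, and its members did not move together. Ube2d3, its member with the largest log2 fold change, had 349.3 and 319.1 normalized CPM in TSSK2-IP and 185.0 and 140.4 in the controls, with a log2 fold change of 1.04 (adjusted p = 0.418, edgeR). Ube2d2a had 89.8 and 69.8 in TSSK2-IP and 63.7 and 32.4 in the controls, with a log2 fold change of 0.73, of 1.30 without IgG 1 and of 0.27 without IgG 2. In both, each TSSK2-IP library was above each control library. The counts of both are uncertain, since Ube2d2a shares 444 bases at 100% identity with a processed pseudogene, and Ube2d3 shares 438 bases at 97.3% identity with another. Ube2d2b, a testis-expressed retrogene copy of the group, had 158.8 and 139.3 normalized CPM in TSSK2-IP and 521.7 and 168.2 in the controls, with a log2 fold change of -1.21 (adjusted p = 0.409, edgeR). Both TSSK2-IP libraries were below both controls, but without IgG 1 the log2 fold change was -0.17. The X-linked genes Ube2dnl1 and Ube2dnl2, whose coding sequences are 94.6% identical, had at most 8.37 normalized CPM in any library. The segment around their catalytic cysteine is the same at 45 of 45 bases.

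Among the E2s that build chains linked through lysine 48 or act at the endoplasmic reticulum, 5 of 6 mRNAs had a positive log2 fold change and the group median was 0.56. Ube2g1, an E2 for lysine 48 chains, had 18.04 and 18.6 normalized CPM in TSSK2-IP and 4.06 and 11.9 in the controls, all TSSK2-IP values above the controls (log2 fold change 1.22, unadjusted p = 0.0335, adjusted p = 0.344, edgeR). Without IgG 1 it was 0.62. Ube2k, a second E2 for lysine 48 chains, had 170.8 and 167.3 in TSSK2-IP and 94.1 and 83.2 in the controls (log2 fold change 0.93, adjusted p = 0.396, edgeR). It shares 193 bases at 98.4% identity with Dnajb14, so its counts are uncertain. The exception was Ube2j1, a membrane-bound E2 of endoplasmic reticulum-associated degradation that is needed for spermiogenesis. It had 177.7 and 159.5 normalized CPM in TSSK2-IP and 563.4 and 212.3 in the controls. Both TSSK2-IP values were below both controls, with a log2 fold change of -1.20 (adjusted p = 0.41, edgeR) and of -0.33 without IgG 1.

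Ube2n and its cofactors Ube2v1 and Ube2v2 build chains linked through lysine 63. Ube2v2 had 40.8 and 40.2 normalized CPM in TSSK2-IP and 12.2 and 26.0 in the controls (log2 fold change 1.09, unadjusted p = 0.0261, adjusted p = 0.325, edgeR, and 0.65 without IgG 1), with the pseudogene copies described above. Ube2n had 176.6 and 157.7 in TSSK2-IP and 276.9 and 157.2 in the controls, so the groups overlapped (log2 fold change -0.38, and 0.093 without IgG 1). Its counts are uncertain too, since it shares 459 bases at 100% identity with a processed pseudogene. Ube2v1 had 11 and 7 counts in TSSK2-IP and 0 and 2 in the controls, too few to be tested, and 61.5% of its exonic bases are shared with the read-through gene Gm20431.

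Ube2t, the E2 of the Fanconi anaemia pathway, had 39.0 and 33.9 normalized CPM in TSSK2-IP and 10.8 and 23.7 in the controls (log2 fold change 1.09, unadjusted p = 0.0286, adjusted p = 0.331, edgeR). Both TSSK2-IP values were above both controls, and without IgG 1 the log2 fold change was 0.62. The RAD6 homologs Ube2a and Ube2b, of which Ube2b is required for male fertility, showed no separation. Ube2a had between 3.52 and 5.90 normalized CPM in all 4 libraries. Ube2b had 59.7 and 66.8 in TSSK2-IP and 84.4 and 52.4 in the controls, with a log2 fold change of -0.11. Ube2u, an E2 found mainly in testis, had 64.7 and 75.4 in TSSK2-IP and 130.7 and 79.0 in the controls, both TSSK2-IP values below both controls (log2 fold change -0.58, adjusted p = 0.559, edgeR), and without IgG 1 the log2 fold change was -0.17.

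**Figure D2:**
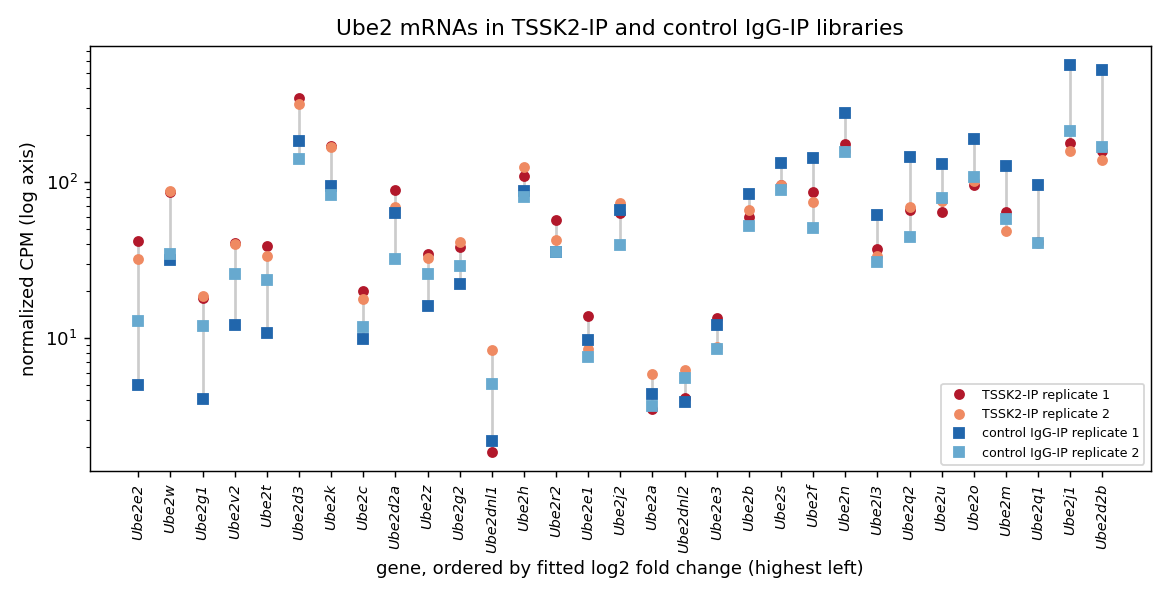
Normalized CPM (vertical log axis) of 31 of the 32 tested Ube2 genes in each of the 4 libraries, ordered from left to right by log2 fold change; circles are TSSK2-IP, squares control IgG-IP, and grey lines join the lowest and highest library. Ube2e2 and Ube2w stand at the left with both circles well above both squares, and at the right Ube2j1 and Ube2d2b have IgG 1 far above the other 3 libraries.

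Usp31, a USP studied for its effect on NF-kappaB signalling, was the Usp mRNA with the largest log2 fold change. It (ENSMUSG00000063317, chromosome 7 from 121642021 to 121707253, minus strand) had 106.8 and 95.7 normalized CPM in TSSK2-IP and 38.7 and 40.2 in the controls. The replicates were close in both groups, and the groups were well apart. The log2 fold change was 1.36 (SE 0.41, adjusted p = 0.209, edgeR's quasi-likelihood test). It was 1.34 without IgG 1 and also 1.34 without IgG 2, and between 1.23 and 1.44 over all alternatives. Its closest relative Usp43 had 13.9 and 10.8 normalized CPM in TSSK2-IP and 5.77 and 7.35 in the controls, also with both TSSK2-IP values above both controls (log2 fold change 0.92, unadjusted p = 0.076, adjusted p = 0.412, edgeR).

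Usp11 and Usp4 are paralogs, with Usp15 the third of the group, and their values went apart. Usp11, which is X-linked, had 14.3 and 17.7 normalized CPM in TSSK2-IP and 5.15 and 8.04 in the controls (log2 fold change 1.29, unadjusted p = 0.0158, adjusted p = 0.282, edgeR). Both TSSK2-IP values were above both controls, and the log2 fold change without IgG 1 was just under 1 (1.00 after rounding). Usp4 (ENSMUSG00000032612, chromosome 9 from 108347853 to 108392545, plus strand) had 133.5 and 117.8 in TSSK2-IP and 548.0 and 176.7 in the controls (log2 fold change -1.53, unadjusted p = 0.0294, adjusted p = 0.334, edgeR). Here both TSSK2-IP values were below both controls, and without IgG 1 the log2 fold change was -0.49. Usp15 had 432.2 and 425.3 in TSSK2-IP and 1251 and 514.9 in the controls, with a log2 fold change of -1.04, and of -0.26 without IgG 1.

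Several USPs act on ubiquitinated histones. Usp49, a deubiquitinase of histone H2B, had 26.1 and 25.1 normalized CPM in TSSK2-IP and 6.71 and 15.4 in the controls (log2 fold change 1.23, unadjusted p = 0.0193, adjusted p = 0.299, edgeR, and 0.74 without IgG 1). Of its exonic bases 51.2% are shared on the same strand with the read-through gene Gm20517, so its counts are uncertain. Usp44, its relative, had 275.9 and 280.3 in TSSK2-IP and 341.7 and 243.6 in the controls, with overlapping groups. Usp16, a deubiquitinase of histone H2A, had 142.4 and 145.0 normalized CPM in TSSK2-IP and 463.1 and 179.2 in the controls, with a log2 fold change of -1.16 (adjusted p = 0.406, edgeR). Usp7, which acts on p53 and its ligase, had 360.3 and 361.7 in TSSK2-IP and 999.6 and 436.8 in the controls, with a log2 fold change of -0.99 (adjusted p = 0.529, edgeR). Without IgG 1 the log2 fold changes of Usp16 and Usp7 were -0.31 and -0.27. For Usp16 and Usp7 both TSSK2-IP values were below both controls. The mRNAs of Usp22, the deubiquitinase of the SAGA complex, and of its relatives Usp27x and Usp51 were all at or under 7.42 normalized CPM.

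Usp8, an endosomal deubiquitinase that is linked to acrosome formation, had the most negative log2 fold change of the tested members. Its mRNA (ENSMUSG00000027363, chromosome 2 from 126707328 to 126759297, plus strand) had 321.9 and 311.5 normalized CPM in TSSK2-IP, from 1553 and 1637 counts, and 1566 and 459.8 in the controls, from 10036 and 2001 counts. Both TSSK2-IP values were below both controls, but IgG 2 was 1.45 times the TSSK2-IP mean and IgG 1 was 4.94 times that mean. The log2 fold change was -1.68 (SE 0.79, unadjusted p = 0.0514, adjusted p = 0.38, edgeR), and -0.53 without IgG 1. The span of Usp50, from 126709096 to 126783470 on the minus strand, overlaps that of Usp8, without shared exonic bases. The part of this overlap in the values of either gene was not tested. Usp50 had 55.8 and 55.2 normalized CPM in TSSK2-IP and 175.2 and 76.3 in the controls (log2 fold change -1.18, unadjusted p = 0.0286, adjusted p = 0.331, edgeR), and -0.45 without IgG 1. Its counts are uncertain, because it shares a stretch of 382 bases at 99.7% identity with Polr2l. Usp2, a USP that male mice need for normal fertility, had 402.4 and 423.2 in TSSK2-IP and 838.8 and 375.4 in the controls, so the groups overlapped.

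The same pattern held for all the tested members with a log2 fold change of -1 or below. There were 11 of them, Ube2d2b and Ube2j1 among the E2s and Usp1, Usp4, Usp8, Usp15, Usp16, Usp24, Usp32, Usp34 and Usp50. IgG 1 was between 2.92 and 4.94 times the TSSK2-IP mean for these, while IgG 2 was between 1.13 and 1.45 times that mean. With IgG 2 as the only control, no tested Ube2 or Usp mRNA except Usp35 had a log2 fold change of -1 or below. Usp35 itself had at most 11.9 normalized CPM, and its log2 fold change was -1.41 against IgG 2 and 0.88 against IgG 1.

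**Figure D3:**
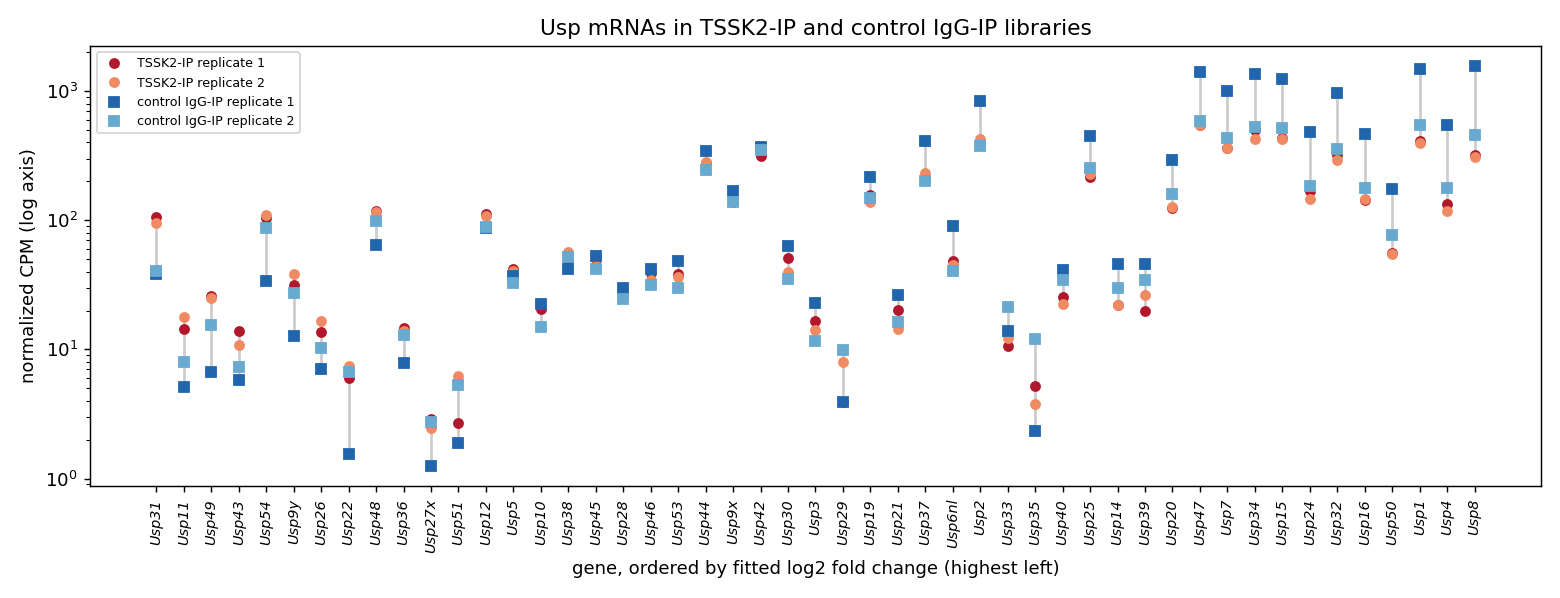
Normalized CPM (vertical log axis) of the 49 tested Usp genes in each of the 4 libraries, ordered from left to right by log2 fold change; circles are TSSK2-IP, squares control IgG-IP, and grey lines join the lowest and highest library. Usp31 stands at the left with the circles apart from the squares, and for the 9 Usp genes furthest to the right, from Usp34 to Usp8, IgG 2 lies near the TSSK2-IP values while IgG 1 lies far above them.

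Other USPs with roles in the germ line lay between these. Usp9y had 31.5 and 38.6 normalized CPM in TSSK2-IP and 12.8 and 27.3 in the controls, above in both (log2 fold change 0.81, adjusted p = 0.424, edgeR, and 0.37 without IgG 1), whereas its X-linked paralog Usp9x had 139.1 and 144.4 in TSSK2-IP and 167.6 and 139.0 in the controls, with overlapping groups. Their coding sequences are 83.2% identical. Usp9x also shares 671 bases at 100% identity with a transcribed processed pseudogene, so its counts are uncertain. Usp26, a testis-expressed X-linked USP, had 13.7 and 16.6 in TSSK2-IP and 7.02 and 10.3 in the controls (log2 fold change 0.81, adjusted p = 0.437, edgeR). Usp14, a proteasome-bound USP whose loss impairs spermatogenesis, had 22.2 and 22.1 in TSSK2-IP and 45.6 and 29.6 in the controls, below in both (log2 fold change -0.77, adjusted p = 0.416, edgeR, and -0.42 without IgG 1). Usp42, a USP known from mouse testis, had 312.8 and 354.7 in TSSK2-IP and 372.4 and 349.9 in the controls, with overlapping groups.

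Per kilobase of exons, the order of the most abundant mRNAs was nearly the same in every library. Among the E2s, Ube2d2b had the highest level in all 4, between 83.01 and 310.9 normalized CPM per kilobase, and Ube2j1 and Ube2u held the next places, with Ube2n always behind them. In TSSK2-IP replicate 2 Ube2u, at 49.0, was ahead of Ube2j1, at 45.2, a difference smaller than the spread between the TSSK2-IP replicates of Ube2u. Among the Usp mRNAs Usp1, a deubiquitinase of the DNA damage response, was highest in all 4 libraries, between 106.7 and 399.5 normalized CPM per kilobase. The counts of Usp1 are uncertain, because it shares 2178 bases at 97.9% identity with a processed pseudogene. Usp2 and Usp8 followed, with Usp2 ahead in both TSSK2-IP libraries (83.5 and 87.8 against 76.8 and 74.3) and Usp8 ahead in both control libraries (373.4 and 109.7 against 174.1 and 77.9).

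The direction of the log2 fold change went with the level. All 18 Usp mRNAs with a mean over 100 normalized CPM were lower in TSSK2-IP by the fit, with a median log2 fold change of -0.93. Of all genes in that band 1842 of 2263 were also lower, with a median of -0.69. Of the 13 Usp mRNAs under 20 normalized CPM, 8 were higher, with a median of 0.45. All 7 Ube2 mRNAs under 20 were higher (median 0.37), while 5 of the 8 over 100 were lower (median -0.30). Of all genes under 20 normalized CPM, 4438 of 7942 were higher, with a median of 0.11. In the same bands the median log2 ratio of IgG 1 to IgG 2 was 1.22 for the abundant Usp mRNAs and -0.70 for the rare ones. Over all genes this ratio was much the same, 1.06 over 100 normalized CPM and -0.76 under 20. The part of level, and of IgG 1, in the lean of each family was not tested.

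**Figure D4:**
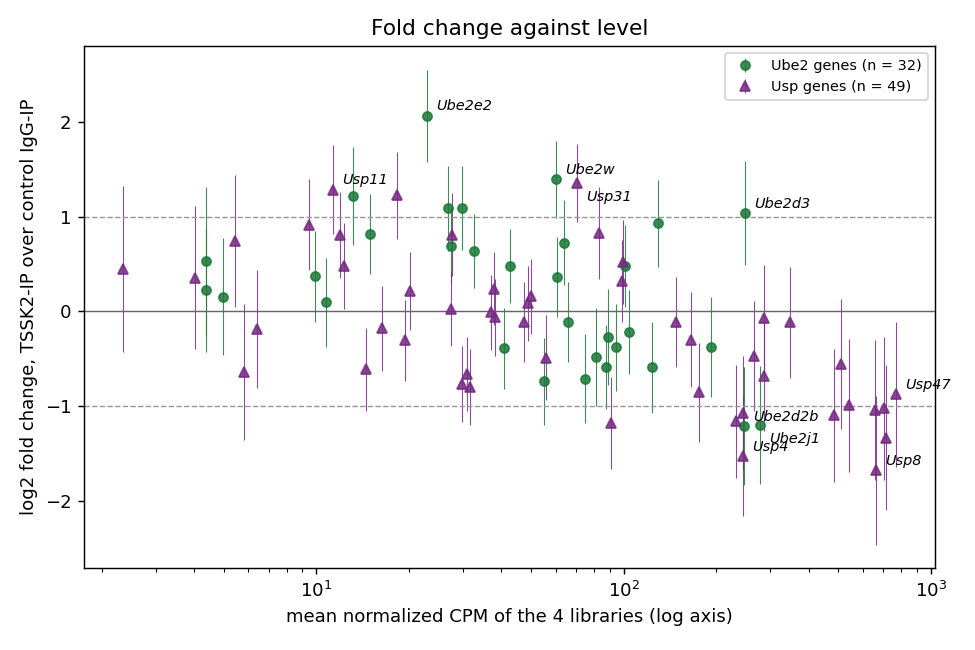
Log2 fold change of TSSK2-IP over control IgG-IP (vertical axis, bars are ± 1 standard error) against the mean normalized CPM of the 4 libraries (horizontal log axis) for 32 Ube2 (circles) and 49 Usp (triangles) genes, with dashed lines at log2 fold changes of 1 and -1. All 18 Usp genes over 100 normalized CPM lie below 0, and Ube2e2, Ube2w and Usp31 are the highest points with moderate levels.

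Against each control library alone, 29 of the 81 members had a positive log2 fold change both times, 23 a negative one both times, and 29 changed sign between the controls. By family, both signs were positive for 16 of 32 Ube2 and 13 of 49 Usp mRNAs, and both negative for 5 and 18. The same counts were not taken over all genes, so these are no result about the families. Ube2e2, Ube2w and Usp31 were the only tested members whose log2 fold change reached 1 against both control libraries, each taken alone. No tested member had one of -1 or below against both. The same members were named above for 2-fold pairings of the same values, so this is no separate support. With 1 control library left the lone library is assumed to vary like the TSSK2-IP pair, whose replicates were close, so the smaller p-values of these fits do not include the spread between the controls.

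**Figure D5:**
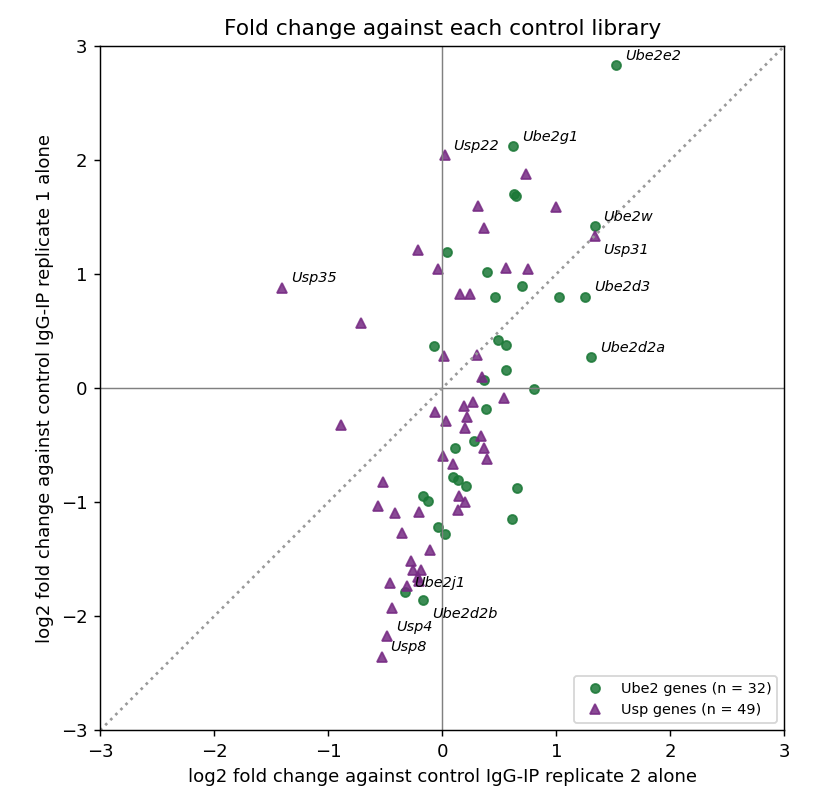
Log2 fold change of TSSK2-IP against IgG 2 alone (horizontal axis) and against IgG 1 alone (vertical axis) for the 81 tested members, circles for Ube2 and triangles for Usp, with a dotted line of equal values. Ube2w and Usp31 lie near the line at about the same value against either control, Ube2e2 is at 1.52 and 2.83, and Usp8, Usp4, Ube2d2b and Ube2j1 lie closer to 0 on the horizontal than on the vertical axis, while Usp35 is negative on the horizontal axis only.

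The other genes of the ubiquitin pathway were looked up in lists of E1 enzymes, ubiquitin and ubiquitin-like precursors, E2s under other symbols, other deubiquitinases, HECT and RBR ligases, cullins, spermatid and spermatocyte ligases, and USP cofactors. These held 160 genes, of which 154 were tested and 0 passed both thresholds. At an unadjusted p under 0.05 edgeR gave 12 higher and 5 lower genes, 7.79% and 3.25% of those tested, beside the 8.34% and 4.89% of all genes given above. Their median log2 fold change was -0.076. The HECT ligases were negative for 18 of 27 and had a median of -0.60, which was -0.15 without IgG 1. Their median level was 128.0 normalized CPM, with some of them under 20, and of all genes over 100 normalized CPM 1842 of 2263 were lower. The part of level in the HECT median was not tested. The RBR ligases were negative for 11 of 14, with a median of -0.67 and of -0.088 without IgG 1. The cullin list was negative for 10 of 13 (median -0.15, and 0.18 without IgG 1). Ubiquitin and ubiquitin-like precursors were positive for 7 of 12, with a median of 0.58. The smallest p-values of these lists were those of Siah1a, a RING ligase (log2 fold change 1.54, unadjusted p = 0.00322, adjusted p = 0.164, edgeR), and of Wdr20, an activator of USP12 and USP46 (log2 fold change 1.34, unadjusted p = 0.00665, adjusted p = 0.228, edgeR). The mRNAs of the partners of Wdr20, Usp12 and Usp46, had log2 fold changes of 0.32 and -0.0096.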

How the data were processed

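The 4 RNA samples, 2 from TSSK2-IP and 2 from control IgG-IP, were sequenced as directional libraries. According to the submitters' processing notes the authors used Trimmomatic 0.39 for trimming, STAR 2.7.10a for mapping to GRCm38 and featureCounts 2.0.3 for counting. The deposited values are raw counts per gene, without normalization. The strand setting and the treatment of reads shared by genes are not given in the sources used here, so the counts of the 29 members whose exons overlap another gene are uncertain. Of the 21936 identifiers, 21894 were found in GENCODE vM21, which gave symbols, biotypes, exonic lengths and coordinates.

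TSSK2-IP was compared with control IgG-IP by the quasi-likelihood functions of edgeR 4.0.16 (R 4.3.3) after TMM scaling. The filter filterByExpr left 14722 genes, and p-values were adjusted over all of them. Genes were called at an absolute log2 fold change of at least 1 and an adjusted p of at most 0.05, limits that the study states for higher mRNAs and that were used here in both directions. Dividing a log2 fold change by the root of its F statistic gave the standard error. The common dispersion was estimated at 0.135. Shared stretches were searched with BLAST+ 2.17.0. The fits were tested on simulated data. Totals ranged from 3938922 to 9858941 counts, so that 3 counts, the limit a count of 0 allows, equalled 0.468 to 0.689 normalized CPM, counting error only. Lars2 took between 5.80% and 14.4% of the counts.

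The members, the lists of pathway genes and markers, and the rule for naming genes were chosen with earlier results of these data known. The rule named the members past both thresholds, those with an unadjusted p under 0.05, the member with the smallest p per family and direction, members with textbook roles in the male germ line (Ube2a, Ube2b, Ube2j1, Ube2d2b, Ube2u, Ube2n, Usp2, Usp7, Usp8, Usp9x, Usp9y, Usp14, Usp26, Usp42 and Usp44), and the relatives of any member past both thresholds. Other members were named after their values were seen, and the values of 1 member are not reported here singly. Alternatives were DESeq2 1.42.0, its size factors, upper-quartile normalization, no filter on low counts, at least 10 counts in every library, removal of mitochondrial, small non-coding and Lars2 genes, the replicate number as a block, offsets for exonic length and GC content, other denominators for shares, and leaving out each library. The removal left 14714 of the 14722 genes tested.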

Additional observations from a re-analysis of the deposited data

How the results depend on the processing

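The number of Ube2 mRNAs past both thresholds in the higher direction was 1 without a filter on low counts and 1 with the replicate block (Ube2e2 both times), and between 0 and 6 when each library was left out, beside 0 as reported. The lower Ube2 count was between 0 and 5 without each library in turn, the higher Usp count between 0 and 8 and the lower Usp count between 0 and 17. These highest counts arose without IgG 2, where the lone control library is assumed to vary like the TSSK2-IP pair. Without IgG 1 the counts were 5 Ube2 and 1 Usp higher and 0 Ube2 and 1 Usp lower. At an unadjusted p under 0.05, the higher Ube2 count was 2 with DESeq2, 2 with the length and GC offsets and 1 to 14 without each library, and the lower Ube2 count 2 with DESeq2, 2 with upper-quartile normalization, 1 with the offsets and 0 to 13 without each library. The higher Usp count was 1 with upper-quartile normalization and 0 to 10 without each library, and the lower Usp count 11 with DESeq2, 5 with DESeq2's size factors, 7 with upper-quartile normalization, 4 with the offsets, 0 with the replicate block and 0 to 26 without each library. The median log2 fold change of Usp mRNAs was -0.30 with DESeq2 and between -0.35 and 0.019 without each library. The difference in the Ube2 share was -0.0192 percentage points on the TMM effective library size. Of 300 values of 25 named genes under the alternatives, 293 kept their direction, which covers the genes named by rule. Over the same alternatives 32 of all 81 tested members took both signs. Ube2a turned to -0.17 with the offsets. Leaving out each library gave a range from -0.19 to 0.55 for Ube2a, -0.47 to 0.28 for Ube2b, -0.78 to 0.093 for Ube2n, -1.07 to 0.14 for Usp2, -0.35 to 0.20 for Usp44 and -0.29 to 0.033 for Usp9x, with the turned value without TSSK2-IP replicate 2 for Ube2a and without IgG 1 for the others. Deviations of same-numbered libraries correlated at 0.13 over genes, and with only 2 pairs the libraries are taken to share a number and no more. The cause of these changes was not tested. DESeq2 gave no adjusted p for Ube2e2, Ube2w and Usp31. For members with few counts, such as Ube2a, differences were not detectable at this depth.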

Other observations

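The 9 tested members on chromosomes X and Y, grouped so after their values were seen, were Usp9x, Usp9y, Usp11, Usp26, Usp27x, Usp51, Ube2a, Ube2dnl1 and Ube2dnl2. For 8 of them the log2 fold change was positive, all but Usp9x, and the median was 0.45. It was 0.042 without IgG 1 and 1.06 without IgG 2. Of all 417 tested genes on X, 246 were positive, with a median of 0.13. Most of these members are rare, with a median of 4.96 normalized CPM, and the part of their level in this value was not tested.

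Across members, the log2 fold change had a Spearman correlation with GC content of -0.45 over the 32 Ube2 mRNAs and of 0.19 over the 49 Usp mRNAs, beside -0.14 over 14710 genes with annotated exons. With exonic length it was 0.26, -0.14 and -0.061. These are descriptions across genes of the same 4 libraries, and genes are not independent replicates.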
